A study of Mus musculus with 26 samples.

Results

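In a data set of 26 RNA sequencing libraries from mouse mesenteric arteries, 9 libraries carry a name whose last 5 digits begin with 22, and these are called the 22 series here. They were compared with the other 17. The members were taken by library name. They are all 3 libraries of the Y198F mutants and, from the S205A line, controls 1 to 3 with mutants 2 to 4. In the other names these digits begin with 23 in 9 libraries and with 24 in 2, and the 6 wild-type and Panx1 knockout libraries carry no such number. The labels do not explain these digits.

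The study measured the arteries that feed the gut in male mice of 8 weeks, with changes in Panx1, the gene of the ATP-releasing channel pannexin 1. The groups without any library of the 22 series were 3 WT and 3 Panx1 KO libraries, 3 Y198F controls (genotype Y198F-/- in the labels), 3 Y308F controls (Y308F-/-) and 3 Y308F mutants (Y308F+/+). All 3 Y198F mutants (Y198F+/+) belonged to the 22 series and none of their controls did, so in that line series and mutation cannot be told apart. In the S205A line each genotype held libraries of both kinds: 3 of the 22 series and 1 other among the controls (S205A-/-), and likewise among the mutants (S205A+/+). The design text speaks of 3 vascular trees each and of littermate or WT controls, and it does not say how the S205A groups came to hold 4 libraries each. Nothing else in the labels tells the 9 libraries from the rest, since tissue, kit, read format and molecule are given alike for all 26.

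All 26 libraries are labelled as poly(A) RNA. As background, selection by the poly(A) tail enriches messenger RNA and removes most RNA that ends without a tail, such as ribosomal RNA, 7SK RNA, the RNAs of Cajal bodies and most replication-dependent histone messages. Processed pseudogenes are copies of spliced messages that were reverse transcribed back into the genome, and many of them differ from their source gene by only a few bases. Read pairs from such near-identical sequences can be assigned to either place, so the counts of a copy and of its source are not independent. The base composition of a transcript is known to affect how efficiently its fragments are amplified and read.

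Total counts per library were 14895969 to 20152220 in the 22 series and 17304603 to 23617902 in the others, and 4 of the 9 libraries lay below every other library. The first principal component of log2 CPM (counts scaled to library size), which held 30.1% of the variance, put the 9 libraries between 31.26 and 77.74 and the other 17 between -45.02 and -9.91. Panx1 itself did not pass the test, at 0.847 to 5.26 CPM in the 22 series and 0.585 to 4.89 CPM elsewhere, with a log2 fold change of 0.00 ± 0.30 (SE). The 3 Panx1 KO libraries held 0.585 to 1.37 CPM of Panx1, and 1 library of another group, S205A control 1 of the 22 series, lay in that range at 0.847 CPM. Smooth muscle markers were abundant in every library, with a summed level of 39937 to 73336 CPM in the 22 series and 37742 to 62044 CPM in the others, and all 17 were tested. In bulk RNA, fewer cells of a type and less RNA per cell cannot be told apart. Nothing in the labels says how animals were assigned to libraries, so the p-values measure the spread between these samples, which may be technical.

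Over all genes the 2 sets of libraries differed widely. Of 16464 genes tested with edgeR's quasi-likelihood test, 5953 passed an adjusted p of 0.05, or 36.2%. The 22 series was higher for 3162 genes (19.2%) and lower for 2791 (17%). For 792 genes (4.81%) the 9 libraries and the 17 did not overlap at all, with 595 of these higher in the 22 series and 197 lower. By RNA class the median log2 fold change was 1.14 for processed pseudogenes and -0.03 for other nuclear protein-coding genes, the same as for all genes. With the 8 labelled groups as terms, so that the series is estimated within the S205A line, 1330 genes were higher (8.08%) and 769 lower (4.67%).

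**Figure D1:**
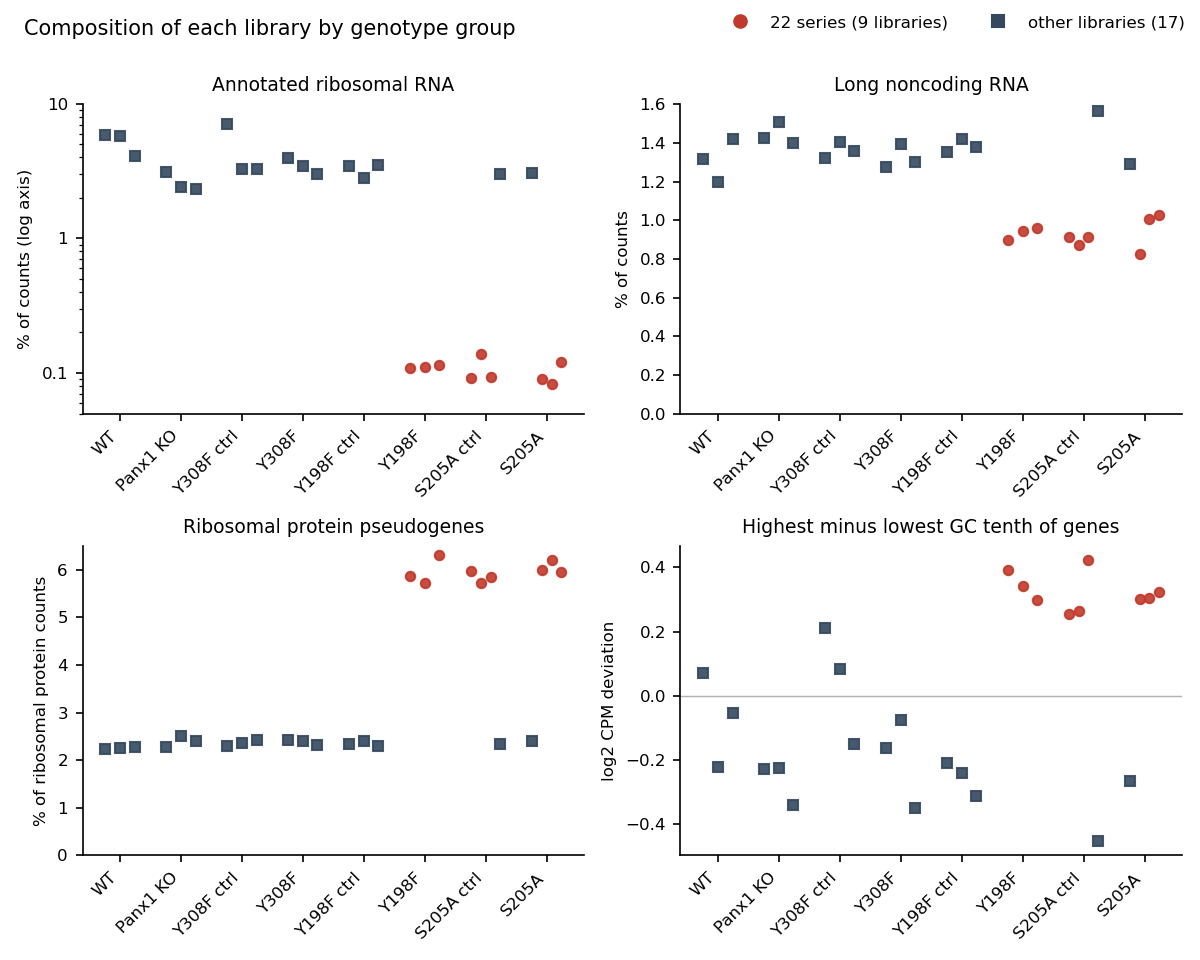
Composition of each library, grouped by genotype, with red circles for the 9 libraries of the 22 series and dark squares for the other 17. The panels show annotated ribosomal RNA as a percentage of counts (log axis), long noncoding RNA as a percentage of counts, ribosomal protein pseudogenes as a percentage of ribosomal protein counts, and the difference in median log2 CPM deviation between the highest and lowest of 10 GC bins of genes. The 2 sets of points do not overlap in any panel, and within the S205A line the single non-22 library of each genotype lies with the 17.

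Ribosomal RNA was the class that differed most by the ratio of mean shares. The mean share of counts in annotated ribosomal RNA was 0.106 ± 0.0178% over the 9 libraries (SD) and 3.73 ± 1.31% over the other 17 (SD), a ratio of 35.3. The lowest, median and highest libraries held 0.0832, 0.109 and 0.139% in the 22 series and 2.32, 3.29 and 7.09% in the others. The exact two-sided permutation test gave p = 6.4e-07, the smallest that 9 against 17 libraries allow (adjusted over 14 RNA classes, 1.49e-06). Within the S205A line the 6 libraries held 0.0832 to 0.139% and the 2 others 3.03 and 3.06%, and in the Y198F line the ranges were 0.109 to 0.115% and 2.82 to 3.50%. Exact tests of 6 against 2 or 3 against 3 libraries cannot go below 0.0714 or 0.1. Nearly all of this class came from Rn18s-rs5, an annotated 18S ribosomal RNA gene on chromosome 17, which supplied 99.6% of it in the 22 series and 99.98% elsewhere. Rn18s-rs5 stood at 1044 ± 184.3 CPM (SD, n = 9) against 37961 ± 14541 CPM (SD, n = 17). On the log2 scale this gene fell by 5.18 ± 0.23 (SE, adjusted p = 2.62e-17).

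Rn7sk was close to absent from the 22 series. It encodes 7SK RNA, a small structured RNA made by RNA polymerase III, which holds the elongation factor P-TEFb inactive. The 22 series held 0 to 20 read pairs of Rn7sk per library (87 in all) and the other libraries 826 to 2042. Of its 31-base words 72.8% occur at other exonic positions, so the origin of its reads is uncertain. In CPM the lowest, median and highest were 0, 0.474 and 1.24 in the 22 series and 42.0, 57.0 and 110.8 in the others, with a log2 fold change of -6.83 ± 0.34 (SE, adjusted p = 7.29e-15). In the S205A line the 2 libraries outside the series had 67.5 CPM (control 4) and 54.7 CPM (mutant 1) of Rn7sk, and the 6 of the series had 0 to 1.24 CPM. Because the annotated Rn7sk transcript of 331 bases is among those that end without a tail, its last 80 bases are shown, from the minus strand of chr9:78082585-78082664 in GRCm39, with the final run of 3 T in capitals.
Rn7sk 3' end: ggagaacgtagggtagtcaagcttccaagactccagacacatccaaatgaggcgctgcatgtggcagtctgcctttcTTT

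Scarna2 and Gm22009 were lower as well. Scarna2, a guide RNA of the Cajal body, had 7 read pairs over the 9 libraries, with 0 in 6 of them, against 815 over the other 17. Gm22009, annotated as a small Cajal body RNA, had 21 read pairs against 4230. Of the 17 identifiers of a list of small structured RNAs, only Rn7sk and Scarna2 passed the filter on low counts. Both passed through the 17 libraries where they are high, so their common direction is no result about the list. The other 15 had mean levels of at most 0.106 CPM in the 22 series and 0.0684 CPM elsewhere, so no difference was detectable for them at this depth. Small noncoding RNA as a class took 0.00647 ± 0.000867% of counts (SD, n = 9) in the 22 series and 0.0163 ± 0.00154% (SD, n = 17) elsewhere, without overlap (exact permutation p = 6.4e-07). Of 37 small noncoding RNAs tested 1 was higher, 10 were lower and 26 were not called (2.7% and 27.0% called, beside 19.2% and 17% of all genes). Members of this class, too, can pass the filter through the libraries where they are high, so these shares are a description.

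**Figure D2:**
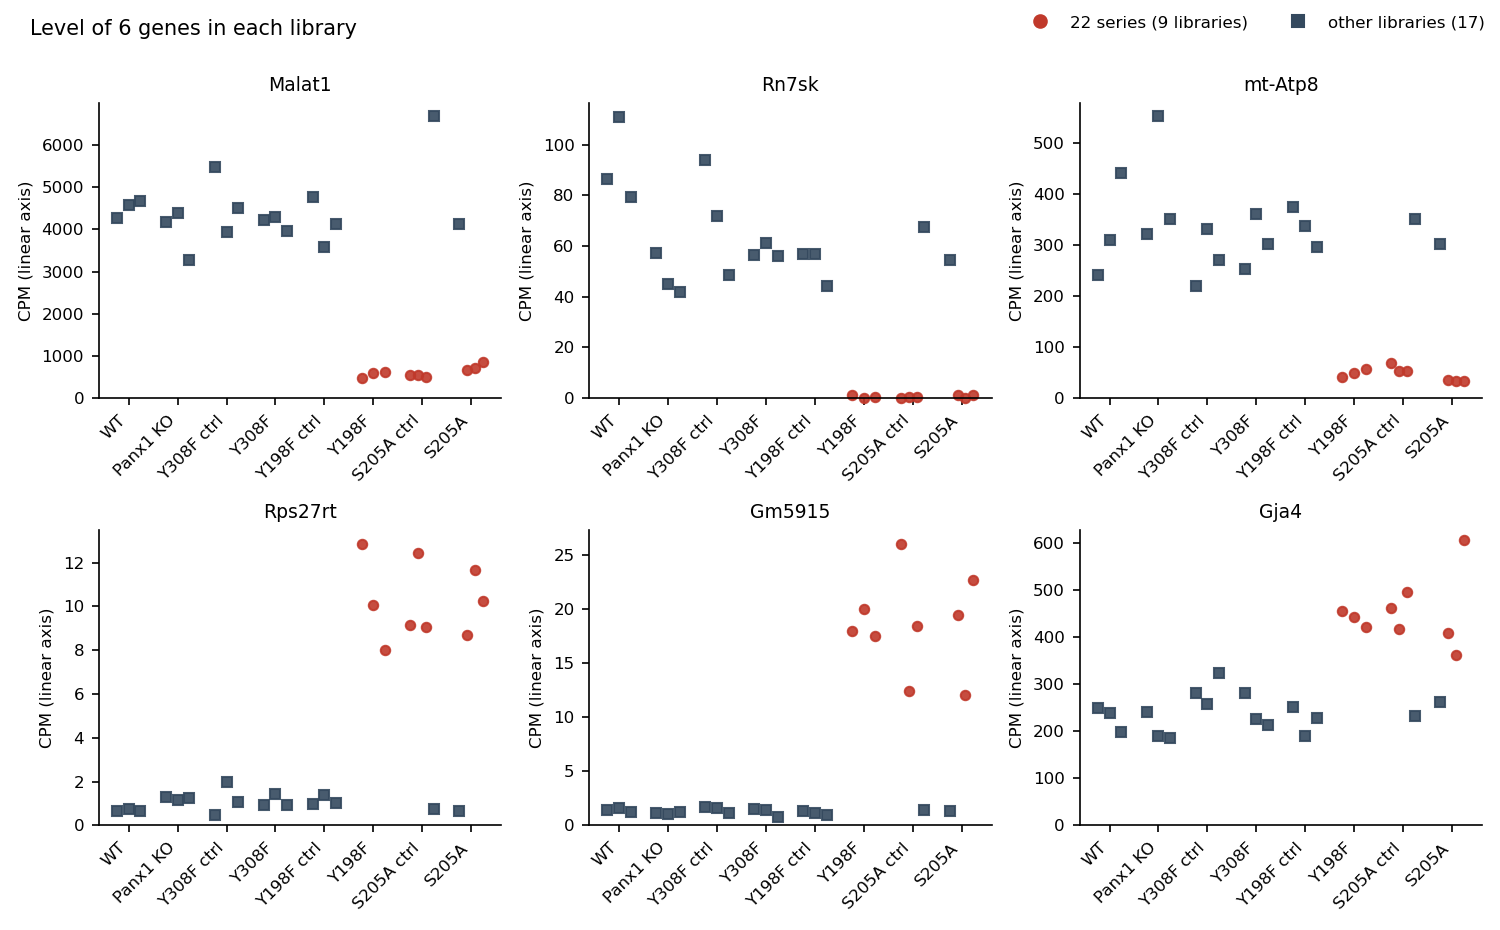
Level of 6 genes in each library in CPM (linear axes from 0), by genotype group, with red circles for the 22 series and dark squares for the others. Malat1, Rn7sk and mt-Atp8 are low and Rps27rt, Gm5915 and Gja4 are high in every red point, and for these genes the 9 and the 17 libraries do not overlap.

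Long noncoding RNA took a smaller share of counts in the 22 series, and Malat1 alone made up 84.0% of the difference. The class took 0.929 ± 0.0637% of counts (SD, n = 9) in the 22 series and 1.37 ± 0.0877% (SD, n = 17) elsewhere, without overlap (exact permutation p = 6.4e-07). Without Malat1 it took 0.867 ± 0.0570% (SD, n = 9) and 0.938 ± 0.0826% (SD, n = 17), with overlap (exact permutation p = 0.0304, a measure chosen after seeing the data). Of 1548 long noncoding RNAs tested, 68 were higher and 202 lower (4.39% and 13.1%, beside 19.2% and 17% of all genes), with a median log2 fold change of -0.14. Malat1 is an abundant RNA of nuclear speckles whose end is made by RNase P cleavage rather than by polyadenylation. Its lowest, median and highest levels were 487, 594.1 and 861.3 CPM in the 22 series and 3266, 4259 and 6680 CPM in the others. The log2 fold change of Malat1 was -2.83 ± 0.12 (SE, adjusted p = 1.08e-17), and it was -3.11 in the S205A line and -2.87 in the Y198F line.

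Of a list of 12 chosen long noncoding RNAs, all 12 were tested, 7 were lower and none was higher (58.3% lower, beside 17% of all genes). The list median was -0.49 (all genes, -0.03). Besides Malat1 these were Kcnq1ot1 (log2 fold change -1.08 ± 0.17, SE) and Meg3 (-0.72 ± 0.16, SE), both transcribed from imprinted loci. Rian (-0.59) and Airn (-0.33) are also imprinted, Neat1 (-0.53) is the scaffold of paraspeckles, and Norad (-0.33) binds Pumilio proteins. The libraries overlapped for these 6 genes, unlike Malat1. With the labelled groups as terms 3 of the 12 were called lower, beside 4.67% of all genes, and the list median was -0.40. In the fit of the S205A line alone only Malat1 was lower, beside 1.16% of all genes there. In the Y198F line 3 were lower, beside 5.48%. Gas5, a spliced host of small nucleolar RNAs, was lower at 48.0 against 63.5 CPM. Of 16 such host genes tested, 2 were higher (Snhg15 and Snhg20) and 3 lower (Gas5, Snhg5 and Snhg8), or 12.5% and 18.8%, near the 19.2% and 17% of all genes, with a median of -0.09.

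Loci annotated as microRNA genes held less of the counts in the 22 series, and 1 of them set most of that level elsewhere: Gm55118, with a median of 2397 of 2545 CPM of the class in the other 17 libraries. Gm55118 and Gm55094 are the same 57 bases at chr16:10961989-10962045 (plus strand) and chr9:56130999-56131055 (minus strand), a stretch with 73.7% GC that occurs 4 times in GRCm39. No base differs between them, so 1 sequence stands for both, and reads cannot be assigned to either with certainty.
Gm55118 and Gm55094: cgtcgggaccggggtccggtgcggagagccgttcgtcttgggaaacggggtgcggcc
Gm55118 had a lowest, median and highest level of 58.1, 135.5 and 203 CPM in the 22 series and 1384, 2397 and 4418 CPM in the others. Its log2 fold change was -4.12 ± 0.24 (SE, adjusted p = 5.67e-14), and that of Gm55094 was -2.80 (adjusted p = 8.48e-11), in the same direction. The class as a whole took 0.0275% of counts in the 22 series and 0.253% elsewhere. Of 29 such loci tested 10 were higher and 7 lower (34.5% and 24.1%, beside 19.2% and 17% of all genes). A locus can pass the filter on low counts through the libraries where it is high, so these shares are a description. Mir145a, the precursor locus of a microRNA of smooth muscle, was higher with a log2 fold change of 1.06 (adjusted p = 1.94e-05), and its neighbour Mir143 had 0.25 (adjusted p = 0.332).

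Messages of the mitochondrial genome took a like share in both sets, 5.51 ± 0.971% (SD, n = 9) and 5.54 ± 0.962% (SD, n = 17) of counts (exact permutation p = 0.942), but not every gene did. Of 13 mitochondrial messages none was higher and 4 were lower (30.8%, beside 17% of all genes): mt-Atp8, mt-Nd4l, mt-Nd3 and mt-Nd6. mt-Atp8 encodes a small subunit of ATP synthase and shares its message, and 43 of its 204 bases, with mt-Atp6. The sequence of mt-Atp8 (chrM:7766-7969, plus strand, GRCm39) is shown with the shared bases in capitals, because reads that reach them touch both genes.
mt-Atp8: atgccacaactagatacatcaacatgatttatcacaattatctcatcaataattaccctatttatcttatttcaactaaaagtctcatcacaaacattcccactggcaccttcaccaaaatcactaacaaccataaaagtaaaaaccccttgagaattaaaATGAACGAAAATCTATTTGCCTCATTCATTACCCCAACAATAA
The lowest, median and highest levels of mt-Atp8 were 33.0, 50.1 and 68.5 CPM in the 22 series and 219, 320.6 and 551.9 CPM elsewhere. Its log2 fold change was -2.79 ± 0.15 (SE, adjusted p = 1.21e-14), with -2.87 in the S205A line and -2.74 in the Y198F line. mt-Atp6, on the same message, had 0.13 ± 0.11 (SE, adjusted p = 0.379). mt-Nd4l, a short gene that also overlaps its neighbour mt-Nd4, had -0.69 ± 0.10 (SE), while mt-Nd4 had 0.21 (adjusted p = 0.151).

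The 2 mitochondrial ribosomal RNAs were lower, from 0.0959 ± 0.0127% of counts elsewhere (SD, n = 17) to 0.0683 ± 0.0105% in the 22 series (SD, n = 9; exact permutation p = 1.79e-05, with overlap). Their log2 fold changes were -0.73 for mt-Rnr1 and -0.43 for mt-Rnr2, far smaller than that of Rn18s-rs5. Of 12 mitochondrial transfer RNAs tested 4 were higher and 3 lower (33.3% and 25%, beside 19.2% and 17% of all genes). The largest change was in mt-Tn, at 2.60 to 5.77 CPM in the 22 series and 8.37 to 13.9 CPM elsewhere, with a log2 fold change of -1.44 ± 0.12 (SE).

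Processed pseudogenes rose as a class. They took 0.747 ± 0.0378% of counts (SD, n = 9) in the 22 series and 0.430 ± 0.0236% (SD, n = 17) elsewhere, without overlap (exact permutation p = 6.4e-07). In the 22 series 998 to 1133 of them held at least 10 counts, and in the others 552 to 692. Of 10245 in the table, 832 passed the filter on low counts, 531 were higher and 49 lower (63.8% and 5.89%, beside 19.2% and 17% of all genes), with a median log2 fold change of 1.14. A pseudogene can pass that filter through the libraries where it is high, so these shares are a description. The higher members were nearly all copies that still resemble another transcript. Among 769 tested pseudogenes with over 25% of their 31-base words found at another exonic position, 528 were higher and 44 lower, with a median of 1.43. Among the 63 with at most 25%, 3 were higher and 5 lower, with a median of -0.09.

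**Figure D3:**
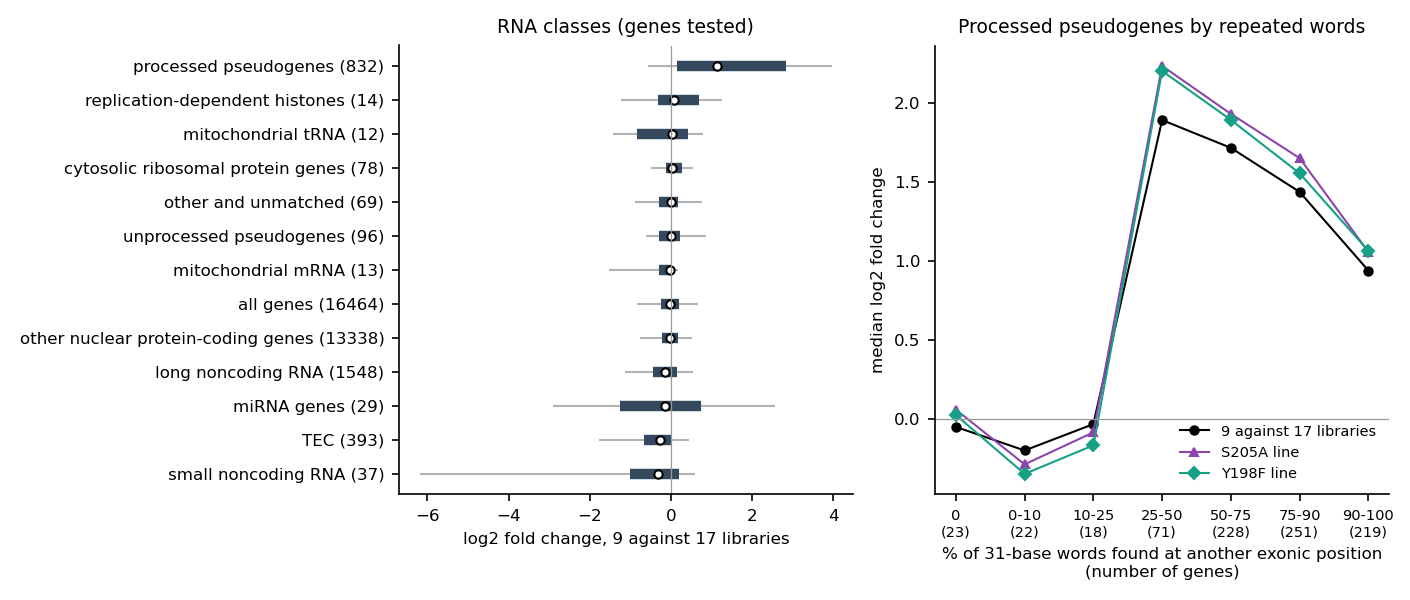
Left: log2 fold change of tested genes by RNA class in the comparison of 9 with 17 libraries, with the median as a circle, the middle 50% as a thick bar and the 5th to 95th percentile as a thin line (classes with at least 10 genes tested). Right: median log2 fold change of processed pseudogenes by the percentage of their 31-base words found at another exonic position, in the pooled comparison and in the S205A and Y198F lines. Medians lie between -0.20 and -0.04 up to 25% repeated words and between 0.94 and 1.89 above it in the pooled comparison.

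The first pseudogenes by the naming rule, whose limits on level and overlap are given at the end, resemble abundant messages. Gm5915 on chromosome 8 resembles Myl6, which encodes the essential light chain of smooth muscle myosin. It had 12.06, 18.43 and 26.04 CPM (lowest, median and highest) in the 22 series and 0.818, 1.29 and 1.74 CPM elsewhere. The log2 fold change of Gm5915 was 3.82 ± 0.12 (SE, adjusted p = 3.05e-20), while Myl6 itself had -0.10 (adjusted p = 0.418). Gm10073, also on chromosome 8, resembles Rplp1, a protein of the ribosomal stalk. Gm10073 rose by a log2 fold change of 3.79 ± 0.18 (SE), with a median of 11.7 CPM in the 22 series and 0.737 CPM elsewhere, and Rplp1 was higher by 0.46. Gm6210 resembles Hspa8, the constitutive heat shock protein, and had 3.56 ± 0.20 (SE) against 0.38 for Hspa8 (adjusted p = 0.0651).

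How close such copies are can be read from 150 bases of Gm5915 (chr8:106387270-106387419), on the minus strand of GRCm39. Capitals mark the bases that differ from the coding sequence of Myl6. The stretch differs at 5 positions, with 58 bases in a row identical to Myl6. The reads were 150 bases long, per the labels.
Gm5915: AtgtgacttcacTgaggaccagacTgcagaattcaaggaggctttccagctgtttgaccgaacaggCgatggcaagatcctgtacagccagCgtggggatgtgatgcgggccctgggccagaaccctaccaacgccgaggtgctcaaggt

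Among protein-coding genes the median by class of repeated words lay between -0.14 and 0.09. With none (2463 genes) 23.7% were higher and 11.2% lower, with up to 10% (9711) 18.0% and 19.0%, with 10 to 25% (786) 14.8% and 25.4%, and with 25 to 50% (241) 11.6% and 22.8%. With 50 to 75% (112) the shares were 26.8% and 17.9%, with 75 to 90% (37) 21.6% and 13.5%, and with over 90% (80) 20% and 37.5%, beside 19.2% and 17% of all genes. Some single genes annotated as protein-coding that resemble another gene did rise. First by the naming rule was Rps27rt, a copy of Rps27 on chromosome 9 (chr9:114811434-114811807, minus strand) whose coding sequence of 255 bases equals that of Rps27 (chr3:90119819-90120977, minus strand) at every base, so the sequence below belongs to both genes.
Rps27 and Rps27rt coding sequence: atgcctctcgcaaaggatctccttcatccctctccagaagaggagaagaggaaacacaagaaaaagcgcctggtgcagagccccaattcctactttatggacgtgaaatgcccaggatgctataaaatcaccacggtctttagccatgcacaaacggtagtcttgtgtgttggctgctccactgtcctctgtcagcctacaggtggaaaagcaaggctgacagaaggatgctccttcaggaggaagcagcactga
Rps27rt had 8.02, 10.1 and 12.9 CPM (lowest, median and highest) in the 22 series and 0.459, 0.957 and 1.99 CPM elsewhere, a log2 fold change of 3.31 ± 0.17 (SE, adjusted p = 7.01e-16). The 2 libraries of the S205A line outside the series had 0.762 CPM (control 4) and 0.651 CPM (mutant 1) of Rps27rt and the other 6 had 8.69 to 12.4 CPM. Rps27 itself was higher by 0.37 ± 0.09 (SE), with overlap. Rpl9-ps6 (2.58), Rpl10-ps3 (2.14) and Rpl35rt (1.52) rose without overlap, and Rpl9 (0.02), Rpl10 (0.00) and Rpl35 (-0.23) did not pass. The copies Gm8797 of Ubb (1.75), Ftl1-ps1 of Ftl1 (1.67, annotated with 4 exons), Adrm1b of Adrm1 (1.64) and Cox5b-ps of Cox5b (3.01) rose too, and of these source genes Adrm1 was higher (0.47) and Cox5b lower (-0.50).

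Of the 832 processed pseudogenes tested, 734 shared at least 25% of their words with a spliced protein-coding gene. Of these 522 were called higher and 41 lower, a description for the same reason as above. The higher ones whose most similar gene was tested (515) pointed to 245 distinct genes, of which 61 were higher, 70 lower and 114 not called (24.9% and 28.6% called, beside 19.2% and 17% of all genes). These source genes had a median log2 fold change of -0.01 and the 734 copies one of 1.55. A few pseudogenes fell without overlap. Gm31166, with 3.49% repeated words, had -1.57 ± 0.11 (SE). Hmgb1-ps6, most like Hmgb1, had -1.44 ± 0.17 (SE), and Hmgb1 had -0.52. Gm15590 had -1.72 ± 0.22 (SE), and it lies entirely antisense to exons of another gene, so its reads are uncertain without strand.

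In the ribosomal protein family genes and copies can be set side by side. Of 322 ribosomal protein pseudogenes 106 were tested, and 102 were higher and none lower (96.2% higher, beside 19.2% of all genes), with a median log2 fold change of 2.65. Here too a copy could pass the filter through the libraries where it is high, so this count is a description. Their sum was 993.5 to 1337 CPM in the 22 series and 353.5 to 566.9 CPM elsewhere. Of 78 cytosolic ribosomal protein genes, all tested, 23 were higher and 12 lower (29.5% and 15.4%, beside 19.2% and 17% of all genes), with a median of 0.03. The pseudogenes held 5.96 ± 0.198% (SD, n = 9) of all ribosomal protein counts in the 22 series and 2.35 ± 0.0723% (SD, n = 17) elsewhere. That share was 5.73 to 6.31% and 2.25 to 2.51%, without overlap (exact permutation p = 6.4e-07). Rpl13-ps3 had 465 read pairs over the 9 libraries and 32 over the 17, and Rpl21-ps11 had 397 and 28.

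Among ribosomal protein genes themselves the largest change was in Rpl23a, a protein of the large subunit. Rpl23a had 123.7, 136.3 and 147.8 CPM (lowest, median and highest) in the 22 series and 251.6, 326.0 and 421.5 CPM elsewhere, a log2 fold change of -1.30 ± 0.09 (SE, adjusted p = 1.13e-12). Exons of other genes on the opposite strand cover 78.1% of its exonic bases, and whether counting used the strand is not given in the sources used here. Rpl35a (-0.69 ± 0.09, SE) and Rpl36a (-0.64 ± 0.08, SE) were lower and Rpl36 (0.65 ± 0.08, SE) was higher, all without overlap. Within the S205A line 17 of the 78 were called higher and 2 lower, beside 3.87% and 1.16% of all genes tested there.

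The share of replication-dependent histone genes did not pass the test. They took 0.0158 ± 0.00186% of counts (SD, n = 9) in the 22 series and 0.0145 ± 0.00189% (SD, n = 17) elsewhere (exact permutation p = 0.0881). Of 67 histone genes 14 were tested, 4 were higher and 2 lower (28.6% and 14.3%, beside 19.2% and 17% of all genes), with a median of 0.07. H2bc23, H2bc24 and H2bc8, of the H2B family, and H3c15, of the H3 family, were higher with log2 fold changes of 0.80 to 1.28. The linker histone gene H1f4 was lower (-2.56, adjusted p = 0.000175) and so was H2ac25 (-0.51). The 2 histone genes at the highest level, H1f2 at 68.5 and 63.9 CPM and H2bc4 at 36.1 and 30.5 CPM (22 series and others), did not pass.

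Nuclear respiratory chain genes were called in both directions. Of 98 in the list 93 were tested, 31 were higher and 17 lower (33.3% and 18.3%, beside 19.2% and 17% of all genes), with a median of 0.02. Cox5b-ps, the copy described above, rose most. Ndufs7, a subunit of complex I, had 65.2 to 100.1 CPM in the 22 series and 32.2 to 54.6 CPM elsewhere (log2 fold change 0.84 ± 0.07, SE). Uqcrb, a subunit of complex III, had 33.6 to 49.0 CPM against 68.9 to 97.0 CPM (-0.86 ± 0.07, SE). Ndufs7 has an exonic GC content of 55.8% and Uqcrb of 40.5%, and 49.4% of the exonic bases of Ndufs7 are covered on the opposite strand.

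Among 13430 nuclear protein-coding genes, the difference went with base composition. The median log2 fold change went up at every step over 10 bins of 1343 genes, from -0.20 at the lowest exonic GC (33.0 to 41.4%) to 0.28 at the highest (56.7 to 80.6%). In the lowest bin 7 genes were higher and 553 lower. In the highest bin 620 were higher and 57 lower. The S205A line went from -0.29 to 0.41 and the Y198F line from -0.27 to 0.34, and each also rose at every step. Across genes the Spearman correlation of GC content with the log2 fold change was 0.45 pooled, 0.54 in the S205A line and 0.48 in the Y198F line (13172 or more genes, which are not independent and share their libraries). Among the unmutated controls alone, 3 of the series against 10, the medians went from -0.19 to 0.25.

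**Figure D4:**
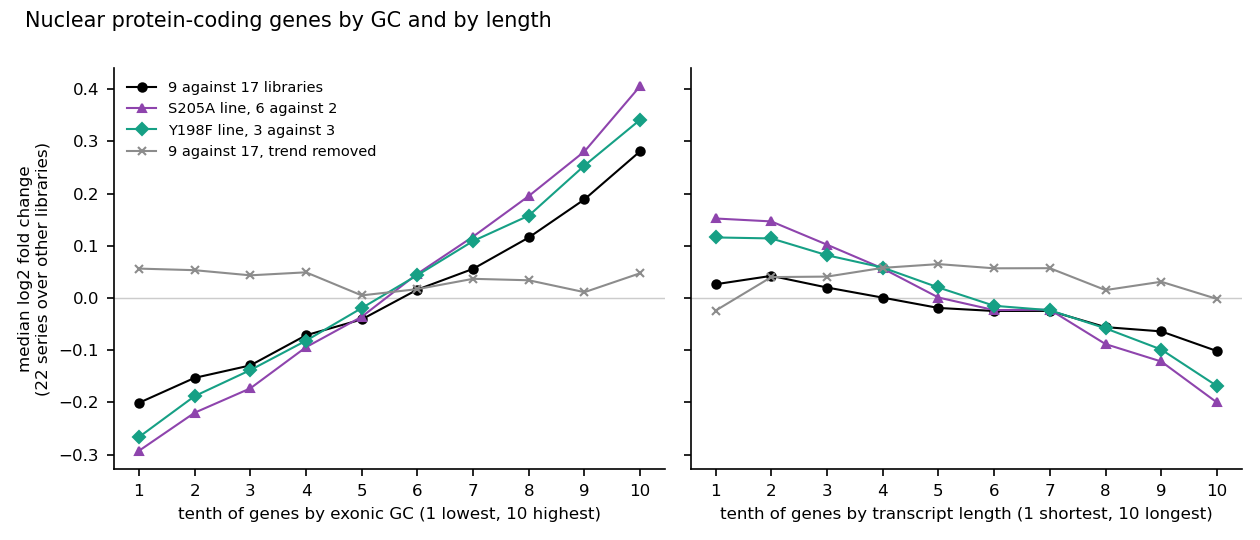
Median log2 fold change of nuclear protein-coding genes in 10 equal bins by exonic GC content (left) and by length of the canonical transcript (right), for the pooled comparison, the S205A line, the Y198F line and the pooled comparison after a trend on GC and length was removed per library. The GC lines run from -0.20 to 0.28, -0.29 to 0.41 and -0.27 to 0.34, the length lines fall by less, and the GC line with the trend removed stays between 0.01 and 0.06.

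The same gradient could be given for each library, as the difference in median log2 CPM deviation between the highest and lowest of the 10 GC bins. It was 0.254 to 0.424 in the 22 series, with a mean of 0.32 ± 0.056 (SD, n = 9). In the other libraries it was -0.454 to 0.211, with a mean of -0.17 ± 0.17 (SD, n = 17), without overlap (exact permutation p = 6.4e-07). The spread among the 17 was wide. Y308F control 1 had 0.211, the highest, and it also held the most annotated ribosomal RNA, 7.09%. S205A control 4 had -0.454, the lowest, and it also held the most long noncoding RNA, 1.57%. The part of these features in the gradient was not tested. The count-weighted mean GC of the messages was 49.91 to 50.13% in the 22 series and 49.15 to 49.91% elsewhere, so in this measure the sets touched.

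By length of the canonical transcript the median went from 0.03 in the shortest of 10 bins (up to 1444 bases) to -0.10 in the longest (7240 bases and more). For the same bins it went from 0.15 to -0.20 in the S205A line and from 0.12 to -0.17 in the Y198F line. Short genes are also richer in GC, with a Spearman correlation of -0.38 between exonic GC and exonic length across the 13430 genes. With genes in 3 classes of GC and of length, the medians of the short, middle and long classes were -0.21, -0.17 and -0.13 at low GC, and 0.18, 0.18 and 0.16 at high GC. Within the lines the median went down with length at high GC, from 0.32 to 0.20 (S205A) and from 0.26 to 0.19 (Y198F). At low GC it went from -0.23 to -0.22 and from -0.20 to -0.17. By exon number the 305 genes with a single exon had a median of 0.15 and the other classes -0.05 to -0.01. Genes covered on the opposite strand over more than 50% of their exonic bases (300 genes) had a median of 0.05, and those without such overlap (5240) had -0.06.

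After a smooth trend on GC and length was removed per library, the GC bins had medians between 0.01 and 0.06 and 5230 genes were called, 3254 higher and 1976 lower. Malat1 then had -2.65, Rn7sk -7.42, mt-Atp8 -2.78, Rps27rt 3.08 and Gm5915 3.36. The processed pseudogenes with over 25% repeated words had a median of 1.13 in that fit. Without the trend removed the values of these 5 genes were -2.83, -6.83, -2.79, 3.31 and 3.82.

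Some single messages differed by far more than any GC bin. Lars2, the mitochondrial leucyl-tRNA synthetase, had 59.5, 115.1 and 165.4 CPM (lowest, median and highest) in the 22 series and 618.3, 1041 and 1618 CPM elsewhere. Its log2 fold change was -3.20 ± 0.20 (SE, adjusted p = 2.3e-13). Rgs9, a regulator of G protein signalling best known from photoreceptors and striatum, had 0.264 to 1.19 CPM in the 22 series and 12.9 to 45.6 CPM elsewhere (-4.91 ± 0.25, SE). Muc6, a gastric mucin, had 41 read pairs over the 9 libraries, with none in 5, and 2973 over the 17, and in the Y198F line, with 22 and 342 read pairs, it had -3.96 and did not pass (adjusted p = 0.107). Slirp, which stabilises mitochondrial messages, had 0.588 to 1.75 and 3.37 to 5.81 CPM (-2.29 ± 0.17, SE). For Slirp 57.3% of the exonic bases are covered on the opposite strand, and for Muc6 53.6% of the 31-base words occur elsewhere.

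Next in size among nuclear protein-coding genes named by the rule as lower were Taf15, an RNA-binding protein of the FET family (log2 fold change -1.24 ± 0.08, SE), Hmgn5, which binds nucleosomes (-1.19 ± 0.09, SE), Snapc5, a subunit of the factor that drives small nuclear RNA genes (-1.07 ± 0.08, SE), and Anp32b, an acidic nuclear phosphoprotein (-1.03 ± 0.06, SE). Taf15 had 40.2 to 65.6 CPM in the 22 series and 94.0 to 151.8 CPM elsewhere, and no word of its exons occurs elsewhere in the transcriptome. Anp32b has an exonic GC content of 61.8%, so its direction was opposite to that of its GC bin. These 4 genes passed the test in both lines, where the naming rule had already asked for the same sign.

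Among genes of the vessel wall, Gja4 and Tagln differed without overlap. Gja4 encodes connexin 37, a gap junction protein of arterial endothelium. It had 362.4, 442.5 and 606.9 CPM (lowest, median and highest) in the 22 series and 186.1, 238.4 and 324.4 CPM elsewhere, a log2 fold change of 0.92 ± 0.09 (SE, adjusted p = 5.63e-10). Outside the series, the 2 libraries of the S205A line had 232.1 CPM (control 4) and 262.1 CPM (mutant 1) of Gja4, and in the Y198F line the 3 mutants had 422.7 to 455.3 CPM and the 3 controls 190.5 to 252.4 CPM. The exons of Gja4 have 58.3% GC, and 31.8% of them are covered on the opposite strand. With the trend removed Gja4 had 0.62 (adjusted p = 2.13e-06).

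Tagln, the actin-binding protein transgelin of smooth muscle, had 84.3, 111.5 and 156.5 CPM in the 22 series and 25.4, 39.4 and 63.7 CPM elsewhere, a log2 fold change of 1.43 ± 0.11 (SE). Of its exonic bases 66.7% are covered by exons on the opposite strand, where Pcsk7 lies, so this level is uncertain. Pcsk7, a proprotein convertase, had 0.16 ± 0.09 (SE, adjusted p = 0.203). Cald1, caldesmon, was lower, at 1931, 2276 and 3030 CPM against 2686, 3873 and 4761 CPM (-0.74 ± 0.10, SE), with overlap, and its exons have 44.7% GC. Of 17 smooth muscle markers 7 were higher and 2 lower (41.2% and 11.8%, beside 19.2% and 17% of all genes), with a median of 0.06. Within the S205A line 1 of them was higher and 1 lower, with a median of -0.02, and the counts were the same with groups as terms. Of 14 endothelial markers 2 were higher (Gja4 and Esam) and 1 lower (Emcn). These are 14.3% and 7.14%, below the share of all genes. In the Y198F line 6 of the 14 endothelial markers were higher and none lower, beside 9.55% and 5.48% of all genes there, and in the S205A line only Gja4 passed, beside 3.87% higher and 1.16% lower. The summed endothelial level was 2296 to 13500 CPM in the 22 series and 4397 to 13309 CPM elsewhere.

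Among markers of other cells of the dissected tissue, no gene separated the 9 libraries from the 17 without overlap, and most Schwann and myelin genes tested were called. Of 12 fibroblast and matrix genes 4 were lower and none higher (33.3% lower, beside 17% of all genes, median -0.33), among them Dpt (-1.47 ± 0.30, SE), Lum (-1.22 ± 0.33, SE) and Dcn (-1.11 ± 0.32, SE), which encode matrix proteoglycans and dermatopontin. Their summed level was 6381 to 13386 CPM in the 22 series and 7444 to 12467 CPM elsewhere. Of 8 Schwann and myelin genes tested 5 were lower and 1 higher (62.5% and 12.5%, beside 17% and 19.2% of all genes, median -0.79), with a sum of 131.7 to 312.2 CPM against 180.6 to 550.3 CPM. Of 11 adipocyte genes 2 were higher and none lower (18.2% higher, near the 19.2% of all genes, sum 725.5 to 3409 CPM and 725.9 to 4157 CPM). The adipocyte median was -0.41 pooled, -0.47 in the S205A line, 1.04 in the Y198F line and -1.36 among unmutated controls. Of 9 macrophage genes Mrc1 was lower (sum 11.1 to 120.6 CPM and 18.7 to 177.2 CPM), of 7 lymphoid, 5 erythroid, 3 mesothelial, 3 intestinal and 1 acinar genes tested none passed, and of 4 neuronal genes 1 was lower. For macrophage and neuronal genes these are 11.1% and 25% lower. The neuronal one, Snap25, had 5 read pairs over the 9 libraries, with 0 in 7 of them, and 279 over the 17. It passed the filter through the 17 libraries where it is higher, so its call is a description. Within the S205A line no fibroblast, Schwann or myelin gene passed the test, though Dpt (-1.33), Lum (-1.19) and Dcn (-1.07) had folds near the pooled ones and the fibroblast median was -0.31. The Schwann and myelin median was -0.11 there. In the Y198F line 2 of the 8 Schwann and myelin genes were lower, beside 5.48% of all genes in that line. Of 6 mesothelial genes tested in the S205A line Upk3b was lower (adjusted p = 0.0210), beside 1.16% of all genes lower there. The summed mesothelial level was 0.844 to 3.85 CPM in the 6 libraries of the series in that line. The others of that line had 8.88 CPM (control 4) and 18.7 CPM (mutant 1). Genes of this list could pass the filter through those 2 libraries, where they are high, so this count is a description. The list median was -4.35 in the S205A line and 1.195 in the Y198F line, where 2 genes were tested. Over all libraries the sum was 0.844 to 40.7 CPM in the 22 series and 2.54 to 34.6 CPM elsewhere. Among unmutated controls alone 8 fibroblast genes (list median -1.04) and 5 Schwann and myelin genes (list median -1.17) were lower and none higher, beside 7.18% of all genes lower and 8.56% higher in that fit. Every gene of the smooth muscle, endothelial, fibroblast, adipocyte, macrophage and Schwann lists had counts. Whether differences in tissue makeup have a part in the results above was not tested.

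Stress and time-of-day genes were read in the same way. Of 13 immediate early genes 5 were higher and none lower (38.5% higher, beside 19.2% of all genes, median 0.83), among them Junb (1.03 ± 0.27, SE), Egr1 (0.99 ± 0.31, SE) and Ier2 (0.88 ± 0.21, SE). Their sum was 943.8 to 5746 CPM in the 22 series and 579.1 to 2713 CPM elsewhere. In the S205A line Junb had 0.17, Egr1 0.01 and Ier2 0.56, and none of the 13 passed there, with groups as terms or among controls alone. Of 8 heat shock genes 3 were higher and 1 lower (37.5% and 12.5%), with Hspb1 (1.24 ± 0.21, SE) first, and none passed in the S205A line (Hspb1 adjusted p = 0.336) or with groups as terms. The folds of Hspb1 (1.31), Hspa1b (1.25) and Hspa1a (1.24) in the S205A line were no smaller than the pooled ones (1.24, 1.07 and 1.06). For Hspb1 both include S205A mutant 4 at 1449 CPM, beside 304.7 to 593.8 CPM in the other libraries of the series. Of the 31-base words of these 3 genes, in the same order, 52.0, 68.2 and 65.4% occur at other exonic positions. Hspb1 passed in the Y198F line (0.85, adjusted p = 0.00296) and among unmutated controls (0.88, adjusted p = 0.00912). Of 10 evening clock genes none passed pooled, while 5 were higher in the Y198F line (median 2.02, beside 9.55% of all genes there) and none passed in the S205A line (median 1.18). Their sum was 667.5 to 2054 CPM in the 22 series and 162 to 1789 CPM elsewhere, and their part in the other results was not tested. In the pooled comparison, of 5 morning ones Clock was lower (-0.38 ± 0.14, SE), or 20%, near the 17% of all genes. The median of the morning list was -0.76. In the Y198F line 2 of the 5 were lower (median -1.56, beside 5.48% of all genes there), and none passed in the S205A line (median -0.64). Of 11 interferon genes Ifi27 was higher and Ifit2 lower, or 9.09% each way, below the 19.2% and 17% of all genes.

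The S205A line allows the series to be read within 1 line and within each genotype. With the genotype as a term, 867 of 17256 genes passed (5.02%), 667 higher in the 22 series (3.87%) and 200 lower (1.16%). Only 2 libraries of this line lie outside the series, so each carries much weight: without S205A control 4 the count was 82 and without S205A mutant 1 it was 113. In the Y198F line, which compares 3 mutants of the series with 3 controls outside it, 2411 of 16050 genes passed (15%), 1532 higher (9.55%) and 879 lower (5.48%). Without Y198F control 3 the count was 908. In a fit of all 8 groups it was 955.

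**Figure D5:**
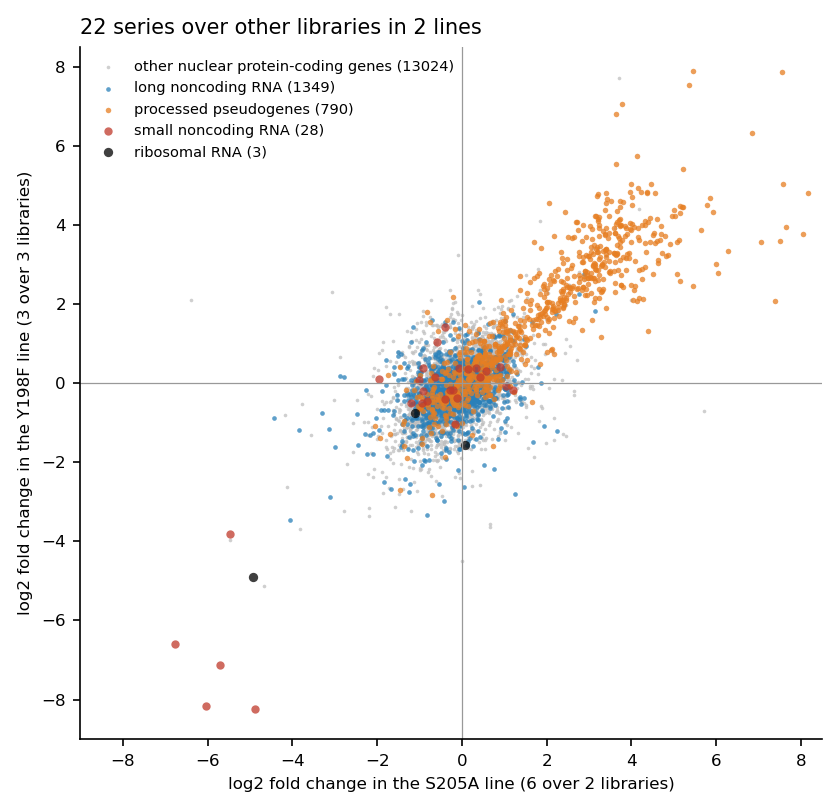
Log2 fold change of each gene in the S205A line (horizontal, 6 libraries of the 22 series over 2 others, genotype as a term) and in the Y198F line (vertical, 3 mutants of the series over 3 controls outside it), coloured by RNA class with the number of genes plotted. Processed pseudogenes extend to the upper right, and Rn7sk (-6.76 and -6.60) and Rn18s-rs5 (-4.93 and -4.91) lie at the lower left.

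These 2 comparisons share no library, and the genes they called overlapped. Of 15871 genes tested in both, 831 were called in the S205A line and 2404 in the Y198F line. Both lines called 732, which is 88.1% of the S205A list and 30.5% of the Y198F list. All 732 had the same direction, 572 higher and 160 lower. Of the 831 genes called in the S205A line 829 had the same sign in the Y198F line, beside 76.9% of all genes tested in both. Across 15786 genes the log2 fold changes of the lines had a Spearman correlation of 0.63, as a description. A test of the difference between the lines, with edgeR on their 14 libraries, called 0 of 16446 genes, and 276 had an unadjusted p under 0.05.

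Processed pseudogenes, ribosomal RNA and long noncoding RNA had the same direction in each line, and the difference between the lines was not tested for classes. Processed pseudogenes had a median log2 fold change of 2.14 in the S205A line, with 376 of 1244 tested called higher and 5 lower, and of 1.55 in the Y198F line, with 462 of 867 higher and 13 lower. Of all genes 3.87% and 1.16% were called in the S205A line and 9.55% and 5.48% in the Y198F line, and the filter bears on these counts of pseudogenes as on the pooled ones. Annotated ribosomal RNA in the series was 0.0339 of its level elsewhere in the S205A line and 0.0342 in the Y198F line. For long noncoding RNA these ratios were 0.648 and 0.674. They lay on either side of 1 for mitochondrial mRNA (0.921 and 1.045) and for unprocessed pseudogenes (0.934 and 1.043).

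The rule for naming genes asked for a mean log2 CPM of at least 1, no overlap between 9 and 17 libraries, and the same sign in both lines. It was met by 512 genes, 326 higher and 186 lower. They included 378 nuclear protein-coding genes (217 higher), 116 processed pseudogenes (107 higher) and 8 long noncoding RNAs (none higher). The long noncoding RNAs B230303O12Rik (-2.26 ± 0.29, SE) and 6720407P12Rik (-1.28 ± 0.11, SE) followed Malat1 in size.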

How the data were processed

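The measurement was RNA sequencing of mesenteric arteries in 26 libraries. Per the labels and the series' design text, read pairs of 150 bases were mapped to GRCm39 with STAR 2.7.9a and the authors deposited counts per gene from featureCounts of Rsubread 2.20.0. The authors used DESeq2 1.46.0 for their own comparisons, whose tables were not used here. The strand setting and the annotation release of the counting are not given in the sources used here. The deposited counts are whole numbers for 57010 identifiers. Of these, 56310 matched GENCODE vM39, and the unmatched ones held 0.0433% of counts.

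Counts were tested with edgeR 4.0.16 (limma 3.58.1, R 4.3.3): TMM scaling, filterByExpr, robust quasi-likelihood fit, Benjamini-Hochberg adjustment over all genes tested and a threshold of 0.05. All adjusted p-values for genes come from these fits. Gene levels are CPM on TMM-scaled library sizes, and principal components used log2 CPM with a prior count of 2. RNA classes, GC content, lengths, antisense overlap and sequences came from GENCODE vM39 and GRCm39. Repeated words are 31-base words of a gene's exons found at another exonic position. Shares per library were tested by exact two-sided permutation over all 3124550 choices of 9 of 26 libraries (Python 3.11.15, numpy 2.4.6, pandas 2.3.3, scipy 1.17.1). Fits were tested on simulated data with 200 changed genes.

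Libraries were grouped by name and label alone. The members, lists and naming rule were chosen with earlier results of these data known. Named genes are those of largest fold change per RNA class that met the rule given at the end of the report, and up to 3 called members of each list. Other genes named singly, among them source genes of copies, Pcsk7, Gm55094, Mir145a, Mir143, H1f2 and H2bc4, were chosen after their values were seen. A named marker gene and a sequence are not reported here. Alternatives were DESeq2 1.42.0, its size factors, no filter, scaling by protein-coding genes, a GC and length trend, groups as terms, controls only, a replicate block and leaving out each library or a line. Total counts of 14895969 to 23617902 per library limit the precision of genes with few reads.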

Additional observations from a re-analysis of the deposited data

Results flagged for a closer look

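In 114 sets of values over the 9 libraries of the 22 series, 15 genes had a single library whose gap to the nearest other exceeded Dixon's 95% critical value. Chance alone gives about 1 in 20 for independent sets of normally distributed values. The sets here share their libraries and are not independent, so that rate cannot be set against the count of genes. In S205A control 1 mt-Nd4l had 978.9 CPM (others 525.9 to 754.9), mt-Rnr2 687.5 CPM (395.5 to 543), Ndufs7 100.1 CPM (65.2 to 82.7) and Gas5 33.45 CPM, below the others (45.8 to 54.1). In S205A mutant 2 Mbp had 56.87 CPM (11.8 to 34.3) and Snhg20 10.59 CPM, below the others (15.8 to 21.0). In S205A mutant 3 Lum had 170.8 CPM (11.4 to 76.3) and Dcn 1163 CPM (100.7 to 548.8). In S205A mutant 4 Hspb1 had 1449 CPM (304.7 to 593.8) and Rpl13-ps3 5.001 CPM (2.01 to 3.44). In Y198F mutant 1 Slirp had 1.751 CPM (0.588 to 1.17) and Rpl36a 81.35 CPM (62.2 to 71.1). In Y198F mutant 3 Muc6 had 1.161 CPM (0 to 0.476), Emcn 7.704 CPM (0.711 to 4.25) and Pnpla2 365.9 CPM (169.7 to 217.3).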

How the results depend on the processing

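The pooled count of 5953 genes stayed within 1.5 times under DESeq2 (6227), its size factors (5952), scaling by protein-coding genes (5956) and the removed GC and length trend (5230). It was 9521 without a filter, 2099 with the labelled groups as terms, 2751 among unmutated controls and 3249 without the S205A line. Leaving out 1 library gave 5530 to 6023. In the S205A line the count was 1790 with DESeq2 and 82 to 1140 with 1 library left out, and in the Y198F line 955 in the fit of all 8 groups and 908 to 2127. Where an arm kept 1 library, it was assumed to vary like the others.

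The GC gradient of genes (0.482) was 0.695 with groups as terms, 0.6989 in the S205A line, 0.608 in the Y198F line and -0.0088 with the trend removed, which takes it out by construction. Ratios of the 22 series to the others in the S205A line were 0.724 for TEC loci (transcripts the annotation marks for further experiments), 1.195 for ribosomal protein genes, 1.85 for processed pseudogenes, 1.253 for histones, 1.016 for mean GC and 0.957 for mean exonic length. The ratio was 0.453 for small noncoding RNA in the Y198F line. Relative to nuclear protein-coding counts mitochondrial tRNA had 0.814 and passed the test, and the protein-coding share is 1 by construction. Mean length of the canonical transcript had 0.987 and no longer passed. For named genes 4444 of 4767 alternative values kept direction and side of the threshold, 272 no longer passed, 50 newly passed and 1 turned: Mbp had 0.041 with groups as terms. The causes were not tested.

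Same-numbered libraries of the controls and mutants had correlations of their deviations of -0.15, 0.1, 0.15 and -0.34 in the S205A line. In the Y198F line these were 0.15, -0.03 and 0.02, and 1 of 7 pairs correlated best with its own number. Deviations were taken from group means without removing the series. In the S205A line the libraries numbered 1, and those numbered 4, differ in series, so this check cannot decide whether they are paired. The main fits did not pair the samples. With a replicate block the counts were 5944, 695 and 1760 in the pooled, S205A and Y198F comparisons. Depth limits the genes with few reads: 15 of 17 small structured RNA identifiers and 9413 of 10245 processed pseudogenes could not be tested.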
